A study of Mus musculus with 22 samples.

Results

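The genes described here are the translation initiation factor genes of the mouse, taken as every counted gene whose symbol begins with Eif and a digit, without pseudogene symbols and without 1 further symbol that the rule set aside. They were 54 of 24421 counted genes. RNA had been sequenced in 22 libraries of live, Epcam+, Cd31-, Cd45- cells sorted from the colon of untreated, wild type male C57BL/6N mice aged 5 to 7 weeks. The gates for Cd44, Cd24 and cKit gave 3 libraries of stem cells (Stem, highest Cd44, low Cd24, cKit-), 3 of AbsPro (medium to high Cd44, low Cd24, cKit-), 4 of SecPDG (high Cd44, medium Cd24, medium cKit), 5 of tuft cells (Tuft, cKit+, high Cd24), 5 of enterocytes (Ent, low or no Cd44, Cd24-) and 2 of enteroendocrine cells (EEC, low or no Cd44, Cd24+). AbsPro are absorptive progenitors, and SecPDG is a gate of secretory progenitors and deep crypt secretory cells. The libraries were biological replicates from independent mice and sorts, with cells of several mice pooled for every cell type but Stem and AbsPro.

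Translation initiation brings the initiator tRNA, the small ribosomal subunit and an mRNA together. The factor eIF2 carries the tRNA, its exchange factor eIF2B reloads it with GTP, the large complex eIF3 scaffolds the small subunit, and eIF4F, made of the cap binder eIF4E, the helicase eIF4A and the scaffold eIF4G, recruits the mRNA through its cap. The colon epithelium renews continuously from stem cells at the crypt base, and proliferating cells are known to depend on a high output of new protein. Kinases that phosphorylate eIF2 and proteins that bind eIF4E are the best known brakes on this step.

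The DNA around the start sites is shown for 9 of these genes. They hold CACGTG, an E-box that basic helix-loop-helix factors such as Myc and Max can bind. All 9 were called lower in Ent than in Stem, as were 15 of 31 with a promoter but no E-box that averaged 50 normalized counts or more. Most of the 9 calls were lost without the libraries of highest background, described below. In EEC 5 of the 9 and 17 of the 31 were called lower. Binding of such factors was not tested. The 300 bases from 250 before to 50 after the start were searched, and CACGTG reads the same on both strands. RefSeq promoters on GRCm38.p6 were matched for 42 of the 54 genes. CACGTG was in at least 1 promoter of 10 of these 42 genes (23.8%) and of 2187 of 27025 genes with a RefSeq promoter (8.09%). Among genes that averaged 50 normalized counts or more the share was 9 of 40 initiation factor genes (22.5%) against 1135 of 10025 genes in all (11.3%). Each sequence below runs 5′ to 3′ on the strand of its gene, with the E-box in capitals, and is named with the distance of the first E-box base from the start.
Eif1b, 24 before the start, chr9:120492571-120492598 on the plus strand: gtgcggacggtCACGTGgcggcggcgcg
Eif3f, 68 before the start, chr7:108934336-108934363 on the plus strand: aagatatgattCACGTGgtataaattta
Eif3k, 44 before the start, chr7:28981916-28981943 on the minus strand: tggaaggaaatCACGTGgtagacaaaaa
Eif3a, 22 after the start, chr19:60790655-60790682 on the minus strand: cgcgagggaatCACGTGgttccttcctt
Eif4a1, 189 before the start, chr11:69672596-69672623 on the minus strand: gatcgcctccgCACGTGtaaaggtgctg
Eif4e, 64 before the start of 1 of its promoters, chr3:138527193-138527220 on the plus strand: gacacgtccgtCACGTGggcaggagccg
Eif4g1, 54 before the start, chr16:20672662-20672689 on the plus strand: gcagtgggtgtCACGTGatggggcggag
Eif4h, 96 before the start, chr5:134639489-134639516 on the minus strand: ggccgccgcacCACGTGggccgcagagc
Eif5a, 74 before the start of 1 of its promoters, chr11:69921444-69921471 on the minus strand: aggggcggggtCACGTGtgtgcgtcatc

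These windows belong to Eif1b, 3 eIF3 subunits, 4 genes of the cap binding complex and its helicase partners, and Eif5a. The same promoters of Eif4e and Eif4g1 hold another E-box, 228 before and 15 after the start, and Eif4e and Eif5a have further promoters, not shown, some of them without it. The remaining gene with the E-box, Eif5a2, was too low to be called. A match describes the letters in these windows alone.

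The depth, as reads assigned to genes, was 15314543 to 22462518 in the libraries of Stem, AbsPro and SecPDG, 9930648 to 20892532 in Tuft, 5950619 to 12966128 in Ent and 4122122 to 13132315 in EEC. All of 6 Stem markers, the 5 counted Tuft markers and 6 EEC markers were highest in their own gate, as were 5 of 6 SecPDG markers, whereas the 6 markers of absorptive cells were highest in AbsPro (2), Ent (3) and EEC (1). Sums over these absorptive markers were 70705 to 109115 normalized counts in AbsPro, 48472 to 72019 in Ent and 21491 and 143213 in EEC. Their part in the EEC results was not tested. Some libraries stood apart. Background was measured by reads on 1553 genes of families taken as not transcribed in colon. Whether single genes of these families are expressed in EEC was not tested. These reads made up 13.1 to 157 CPM (counts scaled to a common library total without further factors) in Stem, AbsPro and SecPDG. They were 183 (Tuft 5) to 1492 in Tuft, 784 and 1340 in Ent 4 and Ent 5 and 622 in EEC 2. In Ent 1, Ent 2, Ent 3 and EEC 1 they were over 3000, with 7106 in the last. The mean share of reads outside annotated exons, which can include introns, was 47.1% in Stem, 47.7% in AbsPro and 43.7% in SecPDG. In Tuft it was 60.9%, in Ent 76.3% and in EEC 77.1%. It was 81.0% to 83.1% in Ent 1 to 3, 89.7% in EEC 1 and 43.4% in Tuft 5. This share was highest in Ent and EEC, where most falls were called, and its part in them was not tested. Ent 1, Ent 2, Ent 3 and EEC 1 are named the 4 high-background libraries. Most calls of named initiation factor genes in Ent and EEC are given also without them. Other genes of the pathway are given without them by their counts per list.

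Of the 54 genes, 52 passed the filter on low counts and 50 averaged 50 normalized counts or more, which are counts scaled by TMM (trimmed mean of M-values) factors to a common library size. Eif3j1 and Eif3j2, which encode the eIF3j subunit, were at 0 in every library. They share 47.6% and 84% of their 100-base windows with other genes, each other among them. The reason for the 0 was not tested, and absence of their RNA is not shown. Eif4e1b and Eif5a2, with means of 16.6 and 21.6 normalized counts, were tested but were too low to be called. Exons of Eif1ad, Eif2a, Eif2ak1, Eif2b4, Eif2d, Eif3j1, Eif3m and Eif5b overlap other genes. Counting ignored the strand, so reads in these overlaps may have been left out as ambiguous, and the counts of these genes are less certain.

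Per kilobase of exon, the eIF3 subunits Eif3a (2646 normalized counts per kilobase, mean of all libraries), Eif3c (2497) and Eif3g (2460) stood first, followed by the scaffold Eif4g1 (1892) and the elongation-promoting factor Eif5a (1812). The lowest of the 50 genes on this scale were the eIF2B subunit Eif2b3 (54.4), the X-linked eIF2 subunit Eif2s3x (63.1) and the cap binder Eif4e3 (89.1). Of the 4 eIF2 kinases, Eif2ak3 was first (370.3) and Eif2ak4 last (105).

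Summed over the 54 genes, normalized counts were 164024 ± 10688 (SD, n = 3) in Stem, 151126 ± 10029 (n = 3) in AbsPro and 161720 ± 18603 (n = 4) in SecPDG. The sums were lower in Tuft (112426 ± 26137, n = 5), Ent (79785 ± 31788, n = 5) and EEC (60218 ± 36348, n = 2). In Ent and EEC the libraries with more background had the lower sums, with 53767, 64887 and 52155 in Ent 1, Ent 2 and Ent 3 against 117951 and 110166 in Ent 4 and Ent 5, and with 34516 in EEC 1 against 85920 in EEC 2. In CPM, which carries no TMM factor, the sums were 11089 ± 935 in Stem, 9776 ± 470 in AbsPro, 9294 ± 805 in SecPDG, 7876 ± 778 in Tuft, 7075 ± 902 in Ent and 5012 ± 538 in EEC, and the gap between the Ent libraries was smaller. Of the 50 genes, 28 had their highest mean in Stem and 14 in SecPDG, and 40 had their lowest mean in EEC.

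**Figure D1:**
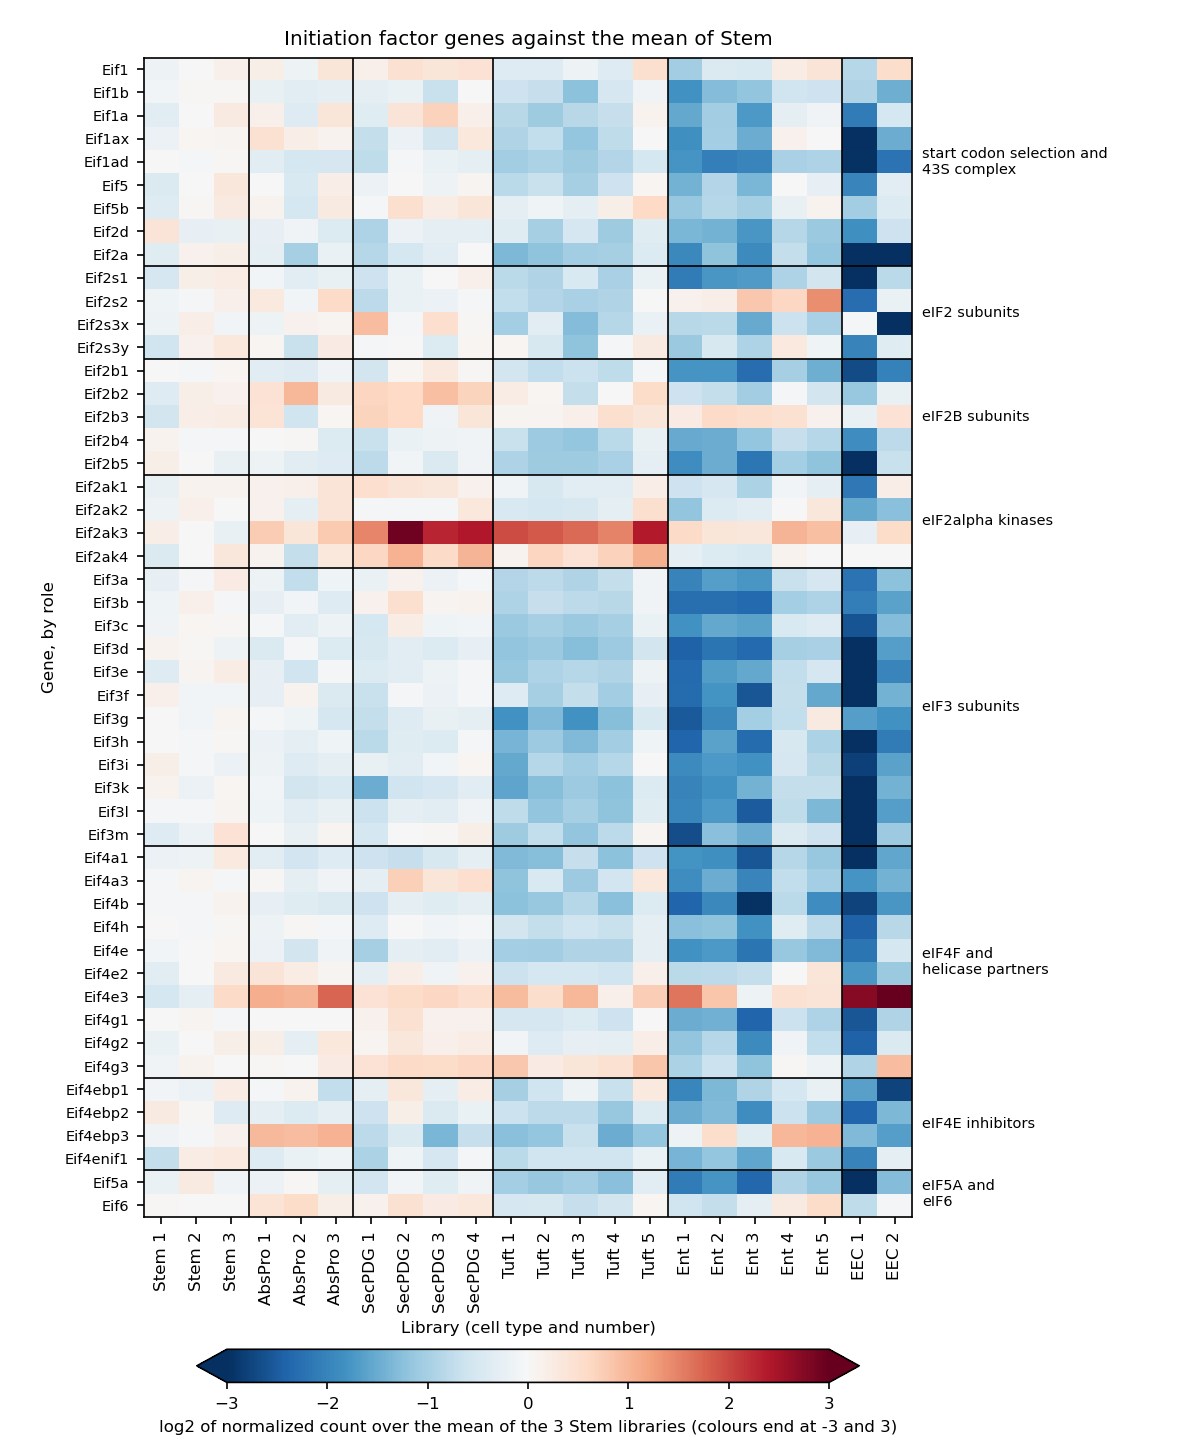
Each row is 1 of the 50 initiation factor genes that average 50 normalized counts or more, grouped by role, and each column is a library; the colour is the log2 ratio of its normalized count to the mean of the 3 Stem libraries. AbsPro and SecPDG stay near the Stem level in most rows, whereas most rows turn blue in Ent and EEC, with Ent 1 to 3 and EEC 1 the deepest, and Eif2ak3 is red in SecPDG and Tuft.

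**Figure D2:**
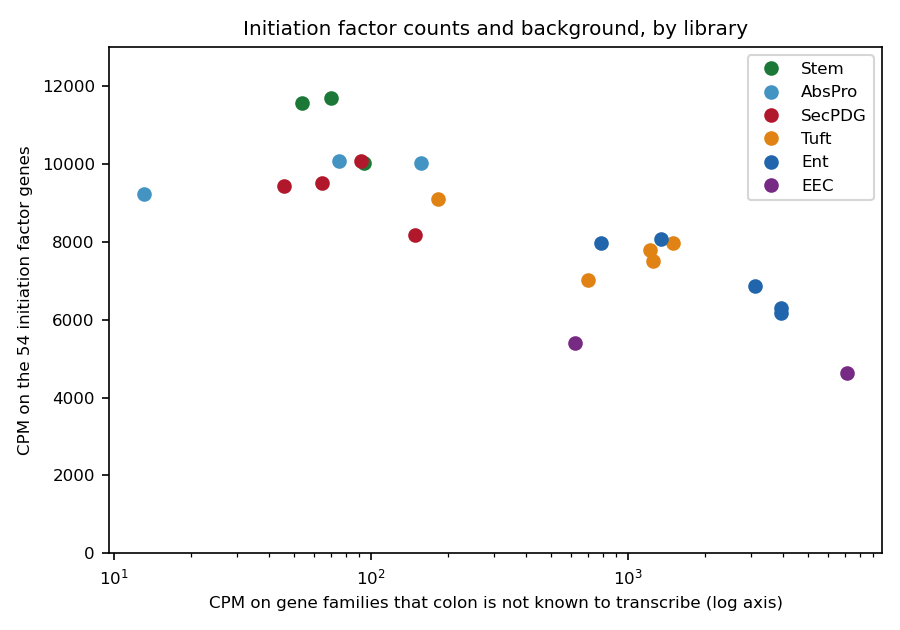
Each point is a library. The log x axis is CPM on gene families taken as not transcribed in colon, the measure of background. The y axis is CPM on the 54 initiation factor genes. The Stem libraries lie at the upper left and EEC 1 at the far right with 7106 CPM of background. All Ent and EEC libraries lie below Stem and to its right, so no background level is shared, and the part of background was not tested.

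Each cell type was compared with Stem to ask which initiation factor genes change as cells leave the stem cell state, and SecPDG with AbsPro to ask which differ between the lineages. Calls rest on edgeR's quasi-likelihood test, with an adjusted p (Benjamini-Hochberg) below 0.01 and at least 50 normalized counts on average. In these bulk libraries less RNA of a gene per cell and fewer cells that express it cannot be told apart. The comparisons with Stem share the 3 Stem libraries. Across the 6 cell types, 37 of the 52 tested initiation factor genes differed (71.2%), against 33.6% of all genes tested and 58% of those with a mean of at least 50.

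In AbsPro no initiation factor gene was called by edgeR, against 0.588% of all genes tested, and DESeq2 called none either. An unadjusted p under 0.05 was found for 2, Eif4ebp3 and Eif4e3, both with the higher values in AbsPro, and the smallest adjusted p was 0.146. In SecPDG 1 gene rose, the kinase gene Eif2ak3, against 4.97% of all genes called and 3.38% called higher. Between SecPDG and AbsPro, Eif2ak3 was higher and the eIF4E inhibitor Eif4ebp3 lower in SecPDG, against 3.72% of all genes called, 2% higher and 1.72% lower. The median log2 fold change of the 50 genes was -0.13 in AbsPro and -0.12 in SecPDG against Stem, where that of all genes averaging 50 or more was 0.04 and -0.06.

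In Tuft 1 gene rose, again Eif2ak3, and 4 fell, the eIF3 subunits Eif3g and Eif3k, the helicase Eif4a1 and Eif4ebp3, against 12.1% of all genes called, 7.84% higher and 4.23% lower, the last being 7.31% among genes averaging 50 or more. The median of the 50 genes was -0.63 and that of all genes -0.09, and 43 of the 50 lay below the median of all. The number of lower calls sat at the threshold and moved with single libraries. It was 0 to 2 without Stem 1, Stem 2, Stem 3, SecPDG 3, SecPDG 4, Tuft 1, Tuft 2, Tuft 3, Tuft 4 or Ent 2, 7 or 8 without AbsPro 1, AbsPro 3, SecPDG 2, Tuft 5, Ent 1 or EEC 2, and 18 without EEC 1.

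In Ent 27 initiation factor genes fell and none rose, against 22.2% of all genes called, 11.5% lower, the last being 19.8% among genes averaging 50 or more. Among genes that averaged 500 normalized counts or more, where 42 of these genes lie, 26 were called lower, against 29.8% of all such genes. The median of the 50 genes was -1.06 and that of all genes -0.30. The split of calls depended on the scaling. With the size factors of DESeq2, which moved the median of all genes to 0.35, 22 genes fell and Eif2ak3, Eif2b3, Eif2s2, Eif4e3 and Eif4ebp3 rose, and with library totals, which moved it to 0.24, 25 fell and Eif2ak3, Eif2s2 and Eif4ebp3 rose. The distance between the medians, -0.76 as reported, was -0.90 under both. Without Ent 1, Ent 2, Ent 3 and EEC 1, 9 genes fell and 3 rose (Eif2ak3, Eif2s2 and Eif4ebp3), and the distance was -0.55. The share of all genes called was computed for the reported fit alone. Counts from any other fit, here and elsewhere, therefore have no such share beside them.

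In EEC 27 genes fell and 1 rose, the cap binder Eif4e3, against 19.9% of all genes called, 10.8% higher and 9.13% lower, the last being 15.8% among genes averaging 50 or more. At a mean of at least 500, 25 of the 42 genes were called lower, against 24.1% of all such genes. The median of the 50 genes was -1.49 and that of all genes -0.30, and 44 lay below the median of all. With the size factors of DESeq2 the median of all genes was 0.48 and the calls were 21 lower and 2 higher, the added one being the scaffold Eif4g3, and with library totals they were 27 lower and 1 higher. Without Ent 1, Ent 2, Ent 3 and EEC 1, which leaves 1 EEC library that is assumed to vary like the other cell types, they were 20 lower and 2 higher.

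Other measures also differed between the cell types. The summed normalized counts of 4 proliferation genes were 27451 to 38383 in Stem, 17891 to 28946 in AbsPro and 32399 to 39517 in SecPDG. They were 13256 to 25127 in Tuft, 2501 to 11336 in Ent and 1429 to 2140.4 in EEC. Sums over 8 immune markers were 181 to 218 in Stem, 1403 to 3471 in Tuft, 412 to 1009.8 in Ent and 567 and 2202 in EEC, where Cd79a was at 0. Sums over 7 stromal markers were 146 to 422 in Stem, 320 to 856 in Tuft, 928 to 1815 in Ent and 2381 and 3493 in EEC, and those over 4 endothelial markers were 74.3 to 164, 231 to 715, 464 to 1158 and 1303 and 1858. The part of these cells and of proliferation in the initiation factor results was not tested.

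**Figure D3:**
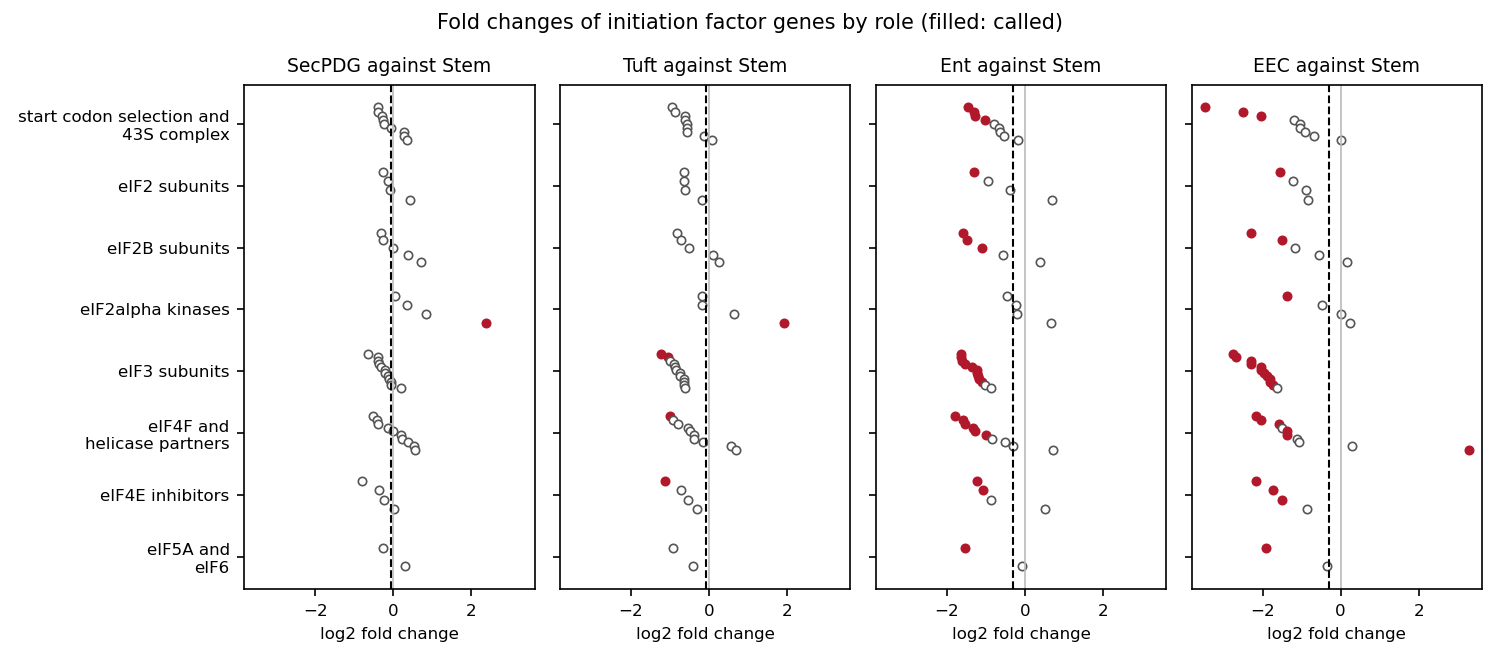
Each point is an initiation factor gene that averages 50 normalized counts or more, with its log2 fold change against Stem on the x axis and its role on the y axis, for SecPDG, Tuft, Ent and EEC; filled points were called and the dashed line is the median of all genes. In Ent and EEC all eIF3 subunits lie left of the dashed line, and the filled points on the right are Eif2ak3 in SecPDG and Tuft and Eif4e3 in EEC.

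Of 9 genes that act on start codon choice and on assembly of the initiation complex, 4 fell in Ent and 3 in EEC, where 19.8% and 15.8% of all genes averaging 50 or more did. None of the 4 calls in Ent and 2 of the 3 in EEC were kept without the 4 high-background libraries. Eif2a (chr3:58525821-58557501, plus strand, gene positions being those of mm10) encodes eIF2A, a factor that can deliver initiator tRNA apart from eIF2, and changed most. It had 773, 1095 and 1136 normalized counts in the 3 Stem libraries and 79.5 and 97.1 in the 2 of EEC. The EEC values lay below every library of the other cell types, and the fall was the largest of all 54 genes in EEC (log2 fold change -3.48 ± 0.54 (SE), adjusted p = 6.59e-07). It held without EEC 1 (-3.53) and without EEC 2 (-3.66), although background was estimated at 15.7% of the EEC mean. In Ent it was 262, 431, 266, 608 and 447, all below Stem (log2 fold change -1.31 ± 0.30 (SE), adjusted p = 0.000403), and without the 4 high-background libraries the adjusted p was 0.0479. Eif1ad, an eIF1A-like gene, fell in Ent (-1.46) and EEC (-2.50). Without these libraries the values were -0.84 (adjusted p = 0.0241) and -2.17 (adjusted p = 0.000113).

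Eif1, the gate keeper of start codon choice, and its close copy Eif1b were not called in the test for any difference among the 6 cell types. Eif1 was at 2186 ± 227 normalized counts (SD, n = 3) in Stem, 2805 ± 267 (n = 4) in SecPDG and 2168 ± 1359 (n = 2) in EEC, with overlapping libraries. Eif1b was at 357 ± 15.7 in Stem and 174 ± 58 (n = 5) in Ent, where it was called lower (log2 fold change -1.03 ± 0.33 (SE), adjusted p = 0.00762), a call lost without the 4 high-background libraries (-0.51, adjusted p = 0.276). Eif5, the GTPase activator of eIF2, and Eif5b, the GTPase of subunit joining, were called in no comparison as reported. With a replicate block in edgeR, Eif5 was called lower in Ent (-1.02, adjusted p = 0.00648).

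Of the 4 subunits of eIF2, Eif2s1 (eIF2alpha) was called lower in Ent (-1.29) and EEC (-1.54). Both calls were lost without the 4 high-background libraries (-0.62 with an adjusted p of 0.0771 in Ent and -0.76 with 0.12 in EEC). In EEC the value was -0.97 (adjusted p = 0.0684) without EEC 1 and -3.62 without EEC 2. Eif2s2 (eIF2beta), named after its values were seen, was the only 1 of the 50 genes with its highest mean in Ent. It had 1563, 1647 and 1877 normalized counts in Stem and 1866, 1933, 2992, 2616 and 4425 in Ent. The ranges touched at the lower end, since Ent 1 lay below Stem 3, and the difference was not called (log2 fold change 0.70 ± 0.33 (SE), adjusted p = 0.0568), whereas with DESeq2 size factors it was (1.27, adjusted p = 8.26e-05 in edgeR). Eif2s2 shares 14.3% of its 100-base windows with Gm9892. Of the 5 subunits of eIF2B, Eif2b1, Eif2b4 and Eif2b5 were called lower in Ent and Eif2b1 and Eif2b5 in EEC, where 19.8% and 15.8% of all genes averaging 50 or more were. The largest change was that of Eif2b1 (-1.59 in Ent and -2.29 in EEC). Both calls of Eif2b1 were kept without the 4 high-background libraries (-1.09, adjusted p = 0.00397, and -1.97, adjusted p = 0.000204). Eif2b5 was kept in Ent without them (adjusted p = 0.00544) and Eif2b4 was lost (adjusted p = 0.0863). In EEC Eif2b5 had 92.2 and 1212 normalized counts. Its change of -1.49 was -0.62 (adjusted p = 0.185) without the 4 libraries, -0.85 (adjusted p = 0.0778) without EEC 1 and -4.40 without EEC 2.

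The 4 kinases of eIF2 had a median log2 fold change of 0.58 in SecPDG, 0.23 in Tuft, -0.21 in Ent and -0.24 in EEC. Eif2ak3 (chr6:70844515-70905245, plus strand) encodes PERK, the kinase that senses unfolded protein in the endoplasmic reticulum. It had 794, 688 and 586 normalized counts in Stem and 1178, 885 and 1195 in AbsPro. In SecPDG it had 1907, 5242, 3367 and 3664, and in Tuft 2659.6, 2469.7, 2233, 1926 and 3584. Every SecPDG and Tuft library lay above every Stem, AbsPro, Ent and EEC library. The rise against Stem was called in SecPDG (log2 fold change 2.36 ± 0.34 (SE), adjusted p = 6.47e-07) and in Tuft (log2 fold change 1.91 ± 0.33 (SE), adjusted p = 1.51e-05), as was that of SecPDG against AbsPro (log2 fold change 1.70 ± 0.33 (SE), adjusted p = 0.000217). These 3 calls were kept in all 33 alternatives. The 6 SecPDG markers summed to 604845 to 2317790 normalized counts in SecPDG, 660932 to 1097710 in Tuft, 132676 to 452653 in Ent and 15375 to 25118 in Stem. Their part in the Tuft value was not tested.

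In Ent Eif2ak3 had 1027, 883, 869.9, 1399 and 1291 normalized counts, each above the 3 Stem libraries, but was not called (log2 fold change 0.67 ± 0.33 (SE), adjusted p = 0.0697). It was called with DESeq2 size factors (1.20, adjusted p = 6.33e-05), with library totals (1.11, adjusted p = 7.65e-05) and without the 4 high-background libraries (1.07, adjusted p = 0.00537). Eif2ak4 (GCN2, the sensor of uncharged tRNA) was at 616 ± 163 (n = 3) in Stem, 1095 ± 191 (n = 4) in SecPDG and 947 ± 226 (n = 5) in Tuft, with an adjusted p of 0.0928 in SecPDG against Stem. With DESeq2's own test it was called higher against Stem in SecPDG (0.85, adjusted p = 0.00398) and Tuft (0.83, adjusted p = 0.00139). The same test called it higher in SecPDG than in AbsPro (0.91, adjusted p = 0.00222), and DESeq2 size factors in edgeR gave the same calls. Eif2ak1 (the haem-regulated kinase) was at 1183 ± 148 in Stem and 1504 ± 166 in SecPDG and was called nowhere. Eif2ak2 (PKR, the sensor of double-stranded RNA) was at 1457 ± 153 in Stem and 559.8 ± 78.3 (n = 2) in EEC, where it fell (log2 fold change -1.37 ± 0.42 (SE), adjusted p = 0.00619), a call that was lost without the 4 high-background libraries (adjusted p = 0.0168).

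Of the 12 expressed eIF3 subunit genes none rose in any comparison, 10 fell in Ent and 11 in EEC. All 12 averaged 500 normalized counts or more, where 29.8% of all genes were called lower in Ent and 24.1% in EEC. The median log2 fold change of the subunits was -0.23 in AbsPro, -0.22 in SecPDG, -0.80 in Tuft, -1.23 in Ent and -1.99 in EEC. In Ent the number of subunits called was 9 with DESeq2 size factors, 10 with library totals and 4 without the 4 high-background libraries. In EEC it was 11 with DESeq2 size factors and 11 with library totals, but in both Eif3g was lost and Eif3a gained. With background reads subtracted the calls were 6 in Ent and 11 in EEC, with the legacy fit of edgeR 7 and 9, and with only the 2 cell types in the fit 9 and 6. The subunits below the threshold were Eif3c and Eif3g in Ent and Eif3a in EEC, with adjusted p of 0.0153, 0.0299 and 0.0107.

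Eif3d (chr15:77958998-77970813, minus strand) encodes a subunit that can itself bind the mRNA cap. It had 5467, 5149.9 and 4548 normalized counts in Stem and 942, 1112, 1007, 2533 and 2591 in Ent. All Ent libraries were below Stem, the first 3 by more than the last 2, with log2 fold change -1.63 ± 0.33 (SE), adjusted p = 9.67e-05. Without Ent 1 to 3 and EEC 1 it was -0.87 with an adjusted p of 0.00486. Eif3f (chr7:108934417-108942951, plus strand), a subunit with a deubiquitinase-like domain, had 4900.3, 4127 and 4136 in Stem and 882, 1275, 739, 2655 and 1516 in Ent (log2 fold change -1.63 ± 0.34 (SE), adjusted p = 0.000105), and -0.96 with an adjusted p of 0.00537 without these libraries.

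In EEC the largest falls among the subunits were those of Eif3h (chr15:51786558-51865523, minus strand) and Eif3e (chr15:43250058-43282719, minus strand). Eif3h had 3693, 3544 and 3717 normalized counts in Stem, 1379, 1704, 1453, 1768 and 3329 in Tuft and 177 and 847 in EEC (log2 fold change -2.76 ± 0.51 (SE), adjusted p = 2.11e-05). Eif3e had 1924, 2651 and 2920.3 in Stem and 97.6 and 633 in EEC (log2 fold change -2.68 ± 0.50 (SE), adjusted p = 1.88e-05). The EEC libraries lay below every Stem library for both genes but differed several fold from each other, so that the changes were -2.27 and -2.14 without EEC 1 and -4.37 and -4.68 without EEC 2. Eif3g (chr9:20894349-20898623, minus strand), the subunit that binds eIF4B, had 4203, 4028 and 4469 in Stem and 1196, 1679.7, 1201, 1738 and 3098 in Tuft (log2 fold change -1.24 ± 0.35 (SE), adjusted p = 0.00691). Eif3k (chr7:28971372-28981864, minus strand), a small subunit, had 2441, 2012 and 2347 in Stem and 753, 941, 1069, 972 and 1715 in Tuft (log2 fold change -1.04 ± 0.31 (SE), adjusted p = 0.00967). For both genes Tuft 5 was the highest Tuft library and still lay below Stem, and the calls were lost in 8 and 12 of 33 alternatives, both of them without Stem 1, Stem 3, Tuft 1, Tuft 2 or Tuft 3, Eif3g also without Stem 2, and Eif3k also without AbsPro 2, SecPDG 3, SecPDG 4, Tuft 4 or Ent 2.

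The group of eIF4F and its helicase partners had 10 expressed genes, of which 6 fell in Ent and 5 fell and 1 rose in EEC. Among all genes averaging 50 or more, 19.8% were called lower in Ent and 15.8% in EEC, and 10.8% of all genes tested were called higher in EEC. Without the 4 high-background libraries 2 of the 6 calls in Ent and 3 of the 6 in EEC were kept. Eif4b (chr15:102073773-102097173, plus strand) encodes the cofactor that stimulates the helicase eIF4A. It had 11586, 11357 and 12734 normalized counts in Stem and 2299, 3134, 1519, 6809 and 3293 in Ent. Even the highest Ent library was below the lowest Stem library, and the fall was the largest of all 54 genes in Ent (log2 fold change -1.80 ± 0.36 (SE), adjusted p = 7.26e-05) and held without Ent 1 to 3 and EEC 1 (-1.13, adjusted p = 0.000765). Eif4a1, the main helicase, fell in Tuft (-0.99), Ent (-1.53) and EEC (-2.04), and the call in Ent was lost without these libraries (adjusted p = 0.0143). It shares 60.8% of its 100-base windows with Eif4a-ps4 and Gm5513. The scaffold Eif4g1 fell in Ent (-1.27, and -0.67 with an adjusted p of 0.0168 without these libraries), whereas its relatives Eif4g2 and Eif4g3, of which the first lacks the part that binds eIF4E, were called in no comparison as reported. With DESeq2's own test Eif4g3 was called higher in Tuft (0.77, adjusted p = 7.16e-05) and EEC (0.82, adjusted p = 5e-04), as it was with DESeq2 size factors in edgeR (adjusted p = 0.00221 and 0.00256). With library totals in edgeR it was called higher in Tuft (adjusted p = 0.00924), and Eif4g2 lower in EEC (-0.91, adjusted p = 0.00537).

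The genes of the cap binders moved in different directions. Eif4e3 (chr6:99625135-99666771, minus strand) encodes an eIF4E-like protein of low cap affinity. It had 65, 78.7 and 140.2 normalized counts in Stem, 202, 193 and 316 in AbsPro, 288, 169, 85.5, 130.0 and 125 in Ent and 629 and 1194 in EEC. Both EEC libraries lay above all other libraries, and the rise was the largest of all 54 genes that could be called (log2 fold change 3.28 ± 0.43 (SE), adjusted p = 1.48e-08). It was 3.49 without EEC 1 and 2.72 without EEC 2, and it was called in all 33 alternatives, with background estimated at 1.67% of the EEC mean. Eif4e itself was at 1154 ± 52.3 (SD, n = 3) in Stem, 866 ± 198 (n = 4) in SecPDG and 383 ± 109.5 (n = 5) in Ent, where it fell (log2 fold change -1.59 ± 0.31 (SE), adjusted p = 3.88e-05, and -1.12 with 0.00486 without the 4 high-background libraries), and at 528 ± 389 (n = 2) in EEC, where it was not called (log2 fold change -1.07 ± 0.40 (SE), adjusted p = 0.0242). Eif4e2, a cap binder that represses translation, was at 2046 ± 402 in Stem and 778 ± 239 in EEC, where it was called lower (log2 fold change -1.38 ± 0.41 (SE), adjusted p = 0.00525), a call lost without these libraries (adjusted p = 0.0183) and without EEC 1 (adjusted p = 0.0119). Per kilobase of exon, Eif4e3 was at 37.6 in Stem and 362 in EEC, Eif4e at 225 and 103, and Eif4e2 at 273 and 104. Eif4e1b, an eIF4E gene known from oocytes, was listed at 0 in all Stem libraries and at 80.5, 45.9, 97, 10.3 and 5.54 in Ent, where background was estimated at 21.8% of the mean, and was too low to be called.

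The genes of the eIF4E inhibitors differed among themselves. Eif4ebp3 (chr18:36664060-36665917, plus strand) encodes a 4E-BP, a protein that competes with eIF4G for eIF4E. It had 431, 453 and 510.1 normalized counts in Stem, 913, 889.7 and 966 in AbsPro and 268, 342, 180.3 and 286 in SecPDG. The 3 AbsPro libraries lay above the 3 of Stem and these above the 4 of SecPDG, and the difference between SecPDG and AbsPro was called (log2 fold change -1.80 ± 0.32 (SE), adjusted p = 6.52e-05) in all 33 alternatives. In Tuft it had 194, 207, 292, 164 and 208, all below Stem (log2 fold change -1.13 ± 0.33 (SE), adjusted p = 0.00799), a call lost in 11 of 33 alternatives, among them the fits without Stem 1, Stem 2, Stem 3, SecPDG 4, Tuft 1, Tuft 2, Tuft 4, Tuft 5 or Ent 2. In Ent it had 416, 665, 360.4, 929.6 and 953, with Ent 4 and Ent 5 in the range of AbsPro, and in EEC 186 and 147 (log2 fold change -1.51 ± 0.49 (SE), adjusted p = 0.00914), a call lost in 11 of 33 alternatives, among them DESeq2 size factors, library totals and the fits without Stem 1, SecPDG 4, Tuft 2, Ent 2 or EEC 2 and without the 4 high-background libraries (adjusted p = 0.013). Eif4ebp3 shares 62.8% of its 100-base windows with the annotated gene AC115631.1, so that its counts are uncertain.

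The other 4E-BP genes, Eif4ebp1 and Eif4ebp2, were called against Stem in EEC and, for Eif4ebp2, in Ent. Eif4ebp1 was at 412 ± 60.1 (SD, n = 3) in Stem, 364 ± 102 (n = 3) in AbsPro, 419 ± 95.6 (n = 4) in SecPDG and 96.6 ± 52.6 (n = 2) in EEC, where it was called lower (log2 fold change -2.18 ± 0.57 (SE), adjusted p = 0.00142). The change was -2.95 without EEC 1 and -1.62 without EEC 2, where the call was lost (adjusted p = 0.0406). The call was also lost with DESeq2's test, with its size factors and with only the 2 cell types in the fit. It was kept without the 4 high-background libraries (adjusted p = 0.00163). Eif4ebp2 was at 1869 ± 417 in Stem, 801 ± 259 (n = 5) in Ent and 546 ± 269 in EEC and was called lower in both (log2 fold change -1.22 ± 0.29 (SE), adjusted p = 0.000574 in Ent). Without these libraries the call in Ent was lost (adjusted p = 0.0366) and that in EEC kept (adjusted p = 0.00657). Eif4enif1, which carries eIF4E into the nucleus, was at 659 ± 212 in Ent and was the only called gene whose libraries overlapped with those of Stem (log2 fold change -1.08 ± 0.31 (SE), adjusted p = 0.00291), a call lost without these libraries (adjusted p = 0.0919).

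**Figure D4:**
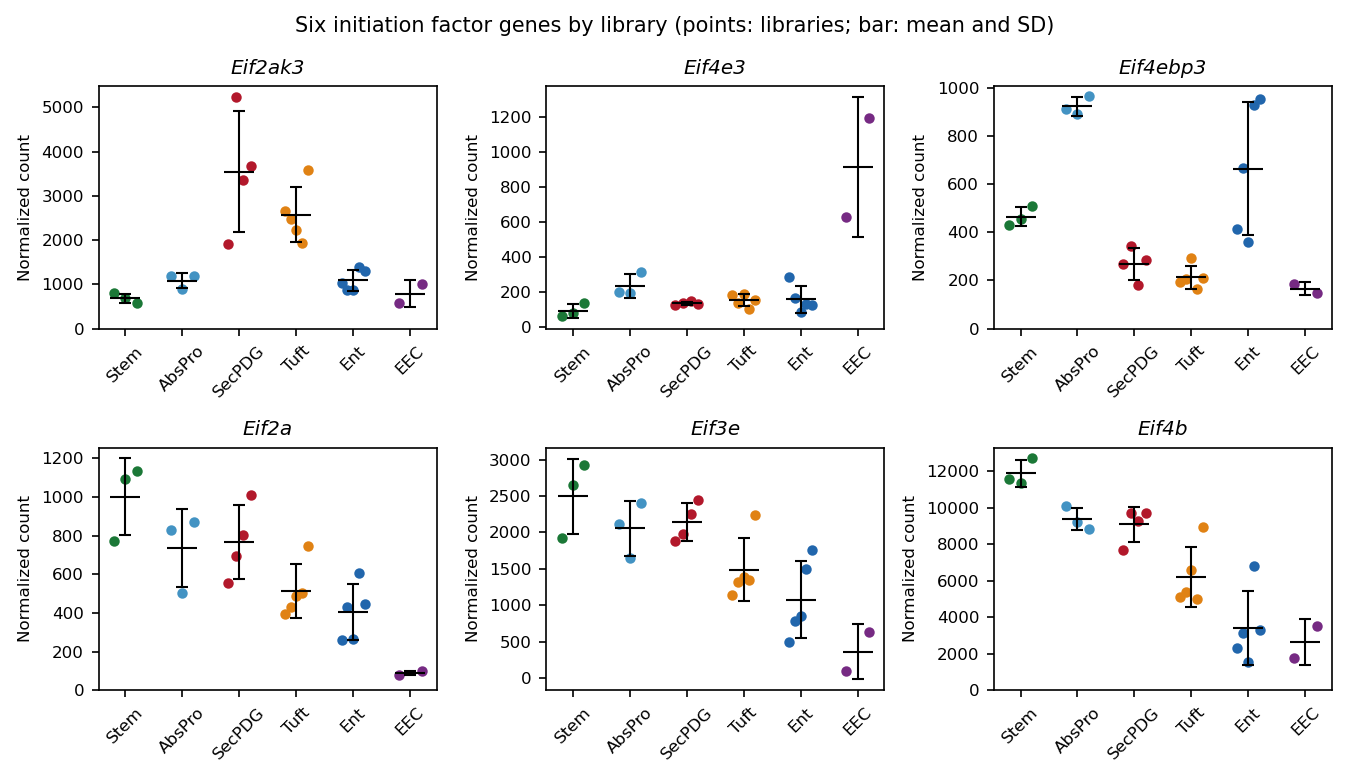
Normalized counts of Eif2ak3, Eif4e3, Eif4ebp3, Eif2a, Eif3e and Eif4b in each library (points) with the mean and SD of each cell type (bar). Eif2ak3 is highest in SecPDG and Tuft, Eif4e3 in EEC and Eif4ebp3 in AbsPro, whereas Eif2a, Eif3e and Eif4b are lower in Ent and EEC than in Stem.

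Eif5a, whose product carries hypusine and helps the ribosome through difficult stretches, fell in Ent and EEC, from 6803 ± 1242 (SD, n = 3) in Stem to 2330.3 ± 1003 (n = 5) and 1775 ± 1398 (n = 2). In Ent the values were 1586, 1985, 1329.7, 3666 and 3085 (log2 fold change -1.55 ± 0.34 (SE), adjusted p = 0.000241). Both calls were kept without the 4 high-background libraries (-0.90 in Ent and -1.24 in EEC). Its paralog Eif5a2 was at 0 in the 3 Stem libraries and at 103 and 118 in EEC. It had 27.8, 39, 32.3, 12.5 and 9.69 in Ent and 0, 30.3, 10.1, 46 and 13.4 in Tuft. Both EEC values lay above all other libraries, and the adjusted p in EEC was 7.78e-06, but the mean of 21.6 over all libraries left it below the minimum for a call. Background was estimated at 27.5% of its mean in EEC and 100.2% in Ent. Eif6, which keeps ribosomal subunits apart, was called nowhere.

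The E-box genes shown at the outset were described beside the rest in each comparison. Of the 9 initiation factor genes with the motif and a mean of at least 50, all 9 fell in Ent, as did 15 of the 31 matched without it. Among all genes, 23.7% of those with the motif and 19.3% of those without it fell in Ent. In EEC 5 of the 9 and 17 of the 31 fell, and among all genes 16.8% and 15.6%. Without the 4 high-background libraries, 6 of the 9 calls in Ent were lost (Eif1b, Eif3a, Eif3k, Eif4a1, Eif4g1 and Eif4h).

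Other genes of the pathway were described from lists, whose counts stand beside 19.8% of genes averaging 50 or more called lower in Ent and 15.8% in EEC. Of 8 elongation factor genes, 5 fell in Ent (Eef1a1, Eef1b2, Eef1d, Eef1g and Eef2) and 4 in EEC, 1 fell in Tuft (Eef1d), and none was called in AbsPro or SecPDG. Eef1g, a subunit of the exchange factor for eEF1A, had the largest change in Ent (-2.05, adjusted p = 4.78e-06), and Eef1b2, another subunit, in EEC (-3.08, adjusted p = 1.87e-05). Of 4 termination and recycling genes, Etf1, Gspt1 and Abce1 fell in Ent and in EEC. Of 5 genes of poly(A) binding, Pabpc1, Pabpc4, Paip1 and Paip2b fell in Ent and 3 of these, without Paip1, in EEC. Pabpc1, which circularizes the mRNA through eIF4G, was at 24707 ± 911 normalized counts in Stem and 7732 ± 3817 in Ent. Without the 4 high-background libraries the elongation factor genes called lower were 4 in Ent and 5 in EEC, those of termination and recycling 1 and 2 and those of poly(A) binding 1 and 3.

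Of 12 genes of mTORC1 and kinase input, Mknk2, a kinase of eIF4E, rose in SecPDG (1.38 ± 0.37 (SE), adjusted p = 0.0098), Larp1, which represses mRNAs of the translation machinery, fell in Ent (-1.54) and EEC (-1.85), and Pdcd4, an inhibitor of eIF4A, fell in EEC (-1.72). Of 9 genes of the integrated stress response, which the eIF2 kinases set off, Asns (asparagine synthetase) rose in SecPDG (1.71 ± 0.32 (SE), adjusted p = 0.000106) and in Tuft (1.16, adjusted p = 0.00441), Ddit3 rose in Ent (1.24) and Sesn2 fell there (-1.10). Atf4, the transcription factor of this response, was at 4241 ± 394 in SecPDG and 2556 ± 380.3 in Stem and was not called (adjusted p = 0.226). Dhx29 and Dohh, a helicase of initiation and an enzyme that makes hypusine, fell in Ent (-1.04 and -1.41). Without the 4 high-background libraries none of the 9 stress response genes was called in Ent, nor was Dhx29 or Dohh. Of the 12 genes of kinase input 1 was called lower in Ent and 1 in EEC.

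Transcript forms of these genes were compared in the tables of skipped exons and distal polyadenylation sites, which cover the 5 comparisons with Stem. Skipped exon events numbered 25 tested in AbsPro, 35 in SecPDG, 37 in Tuft, 25 in Ent and 14 in EEC. None was called by edgeR at an adjusted p under 0.05, nor was any event of any gene in these tables (0%), and limma on log2 ratios called none of these genes' events. A test that called no event of any gene cannot tell whether the exons of these genes differ. The study's own rMATS test did report skipped exon changes against stem cells. An unadjusted p under 0.05 was found for 1 event in Tuft, 2 in Ent and none in the other comparisons. Shares of the distal polyadenylation site were tested in limma for 31 transcripts of these genes in AbsPro, 31 in SecPDG, 23 in Tuft, 17 in Ent and 10 in EEC. None was called, against 0%, 0.0231%, 0.0606%, 0.0397% and 0.474% of all transcripts, and the unadjusted p was under 0.05 for 1 in SecPDG, 3 in Tuft, 2 in EEC and none in AbsPro or Ent.

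Eif4g2, which encodes a scaffold for translation without the cap binder and is named after its values were seen, had distal shares of 22%, 19% and 20% in Stem and of 11%, 11%, 13% and 13% in SecPDG, in the order of the table, which names no library. The 2 cell types did not overlap but the difference was not called (adjusted p = 0.79 in limma). In the table of Tuft the shares were 13%, 15%, 11%, 16% and 14%, again below those of Stem (adjusted p = 0.855). In that of Ent, for which the authors' tool estimated the Stem shares anew at 18%, 9% and 14%, they were 14%, 15%, 14% and 21% with 1 library without a value, and the ranges overlapped.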

How the data were processed

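Per the labels and the study's methods, the authors aligned reads of low-input libraries to mm10 with STAR 2.5.2a and made the deposited raw counts per gene with HTSeq 0.6.1p1, ignoring strand. The 5 lines of each count file that name no gene, 53.9 to 58.6% of each total in Stem, AbsPro and SecPDG, 54.1 to 74.0% in Tuft, 72.7 to 86.0% in Ent and 70.7 to 91.6% in EEC, were left out. The authors deposited skipped exon tables from rMATS with inclusion and skipping counts per library, and DaPars tables whose values are the fraction of distal polyadenylation site use. Columns of the authors' own comparisons (p-values, differences), and the MAJIQ tables, which hold only these, were not used.

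Counts of 22 libraries were filtered (filterByExpr), scaled by TMM and fitted together in edgeR 4.0.16 (R 4.3.3) with its quasi-likelihood F test. Of 24421 genes, 22781 were tested, and calls needed 50 normalized counts or more on average with an adjusted p (Benjamini-Hochberg) below 0.01, the thresholds of the study. The bias-adjusted quasi-likelihood fit was used in place of the legacy fit, the default of this version. This was decided after the calls over all genes of both had been seen, to keep the processing of an earlier analysis of these data, and the legacy fit is an added alternative. Skipped exon counts were tested with the legacy fit of edgeR, chosen on simulated data, for events with a mean of at least 10 counts, and distal shares in limma 3.58.1 on log2((share + 0.01)/(1 - share + 0.01)), both at an adjusted p under 0.05. Alternatives were DESeq2 1.42.0, other scalings, filters and thresholds, fits of the 2 cell types alone, a replicate block, subtraction of background reads and leaving out each library. Leaving out the 4 libraries with over 3000 CPM of background was added after seeing the data. The scripts were tested on simulated data.

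The initiation factor genes, role groups, pathway lists and tests were chosen with earlier results of these data known. Values of every library are given for the called genes with the 3 largest increases and 3 largest decreases in each comparison whose libraries did not overlap, and paralogs are given by mean and SD. No 2 libraries were alike within counting noise. The number of libraries, with 2 for EEC, limits precision. Depth was lowest in EEC 1 (4122122 reads assigned to genes), and the parts of depth and of library number were not tested.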

Additional observations from a re-analysis of the deposited data

Results flagged for a closer look

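Tuft 5 lay far above the other 4 Tuft libraries for 4 eIF3 subunit genes, with the gap to the nearest library over the critical share of the range of the group. Eif3g had 3098 normalized counts in Tuft 5 and 1738 in the next library. Eif3d had 3469.97 against 2384, Eif3h 3329 against 1768 and Eif3e 2243 against 1386. The sum over the 54 initiation factor genes was 159165 in Tuft 5 against 101888 in the next library. These were 5 of 36 groups of libraries examined, where chance flags about 1 in 20, and the 4 genes and the sum share 1 library, which also had the least background of the Tuft libraries (183 CPM). The part of background in this gap was not tested.

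The effects against Stem differed between SecPDG and AbsPro for 2 genes in edgeR's quasi-likelihood test of that difference. It was 1.70 on the log2 scale for Eif2ak3 (adjusted p = 0.000217) and -1.80 for Eif4ebp3 (adjusted p = 6.52e-05). All 4 SecPDG libraries lay above the 3 of AbsPro for Eif2ak3 and below them for Eif4ebp3.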

How the results depend on the processing

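Of 63 calls of an initiation factor gene in a comparison, 24 were kept in all 33 alternatives. Over calls and alternatives there were 2079 results, of which 1898 kept the call, 181 lost it and 0 changed direction. The alternatives with no minimum mean and with an adjusted p under 0.05 only loosened a threshold of the reported fit. No call could be lost in them, so they add nothing to these counts as a check. The Tuft count, 5 as reported, moved most as a ratio. It was 16 with DESeq2's own test, 14 with DESeq2 size factors in edgeR, 17 with library totals, 8 with no filter on low counts, 16 at an adjusted p under 0.05, 18 with only Tuft and Stem in the fit, 1 with background reads subtracted, 1 with edgeR's legacy fit and 21 without the 4 libraries with most background. For SecPDG, 1 as reported, it was 2 with DESeq2, 2 with its size factors, 3 with library totals and 3 with only the 2 cell types. With only the 2 cell types it was 1 for AbsPro (0 as reported, the added gene being Eif4ebp3) and 11 for EEC (28 as reported). Without the 4 libraries with most background it was 12 for Ent (27 as reported).

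The distance of the median of the genes from that of all genes in EEC, -1.19 as reported, was -1.36 with DESeq2 size factors, -1.38 with only the 2 cell types and -1.0025 without the 4 libraries, and that in Ent was -0.55 without them. Leaving out 1 library at a time gave 23 to 35 calls in EEC, 21 to 38 in Ent (38 without EEC 1), 1 to 19 in Tuft, 1 to 2 in SecPDG (2 without EEC 1), 0 to 0 in AbsPro, 2 to 3 between SecPDG and AbsPro and 34 to 47 in the test of any difference. The distances then ranged from -1.31 to -1.03 for EEC, -0.83 to -0.70 for Ent, -0.63 to -0.47 for Tuft, -0.10 to 0.02 for SecPDG, -0.24 to -0.12 for AbsPro and 0.02 to 0.09 between SecPDG and AbsPro. The legacy fit called 22 genes in Ent, 23 in EEC and 32 in the test of any difference, and the cause of these shifts was not tested. No call of a transcript form arose in any alternative.

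Replicate numbers did not pair the libraries. Deviations of 44 same-numbered pairs had correlations of -0.39 to 0.48 (17 over 0.1), and a fit with the number as a block gave 20 calls in Tuft. No paired analysis was possible for splicing and polyadenylation because their tables do not name the libraries.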
